A study of Mus musculus with 16 samples.

Results

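TCRBV13-03 is the immunoSEQ name of the mouse T cell receptor beta variable gene Trbv13-3, and its rearrangements were examined in tumor-infiltrating T cells from 16 mice. Every rearrangement that the files assign to TCRBV13-03 was taken, which gave 10254 of 198953 rearrangements over all samples. Of these, 7150 were in frame, 3061 were out of frame and 43 held a stop codon. Within the in-frame set, CDR3 amino acid sequences were selected on how many samples they were found in, and the endings AGYEQYF and NYAEQFF were chosen with earlier results of these files known. Recurrence and membership of those endings therefore describe how the sequences were picked, and no test is given on them.

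The T cells came from subcutaneous tumors of KPC-Luc, a luciferase-expressing mouse pancreatic ductal adenocarcinoma line, grown in female C57BL/6 mice. The paper gives enrichment with CD90.2 magnetic beads in the methods of its Nanostring expression assay. Its TCR sequencing methods name harvested tumors, so whether these samples were enriched was not settled. They were read by immunoSEQ, a multiplex assay that reports each TCRB rearrangement as an 87-nucleotide sequence with a count of template molecules. There were 4 groups of 4 mice. The control group was given a scrambled peptide together with isotype IgG. The ANT008 group received ANT008, a peptide antagonist of the receptors for vasoactive intestinal peptide, with isotype IgG. The anti-PD-1 group received scrambled peptide with anti-PD-1 antibody, and the combination group received both ANT008 and anti-PD-1. Peptides were given at 10 µg every day and antibodies at 200 µg every 3 days, over 10 days, so no group was free of injected peptide and antibody. The samples held 7180 to 72588 productive templates, and anti-PD-1 replicate 4 was the smallest.

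A T cell receptor beta chain is built by joining a V, a D and a J gene segment, with bases trimmed and inserted at both joints. The CDR3 spans the joints and is the stretch of the chain that contacts antigen most directly. An out-of-frame join makes no receptor, so its V gene reflects recombination without selection on the chain it would have made. A CDR3 that needs few inserted bases is made more often and can arise in many animals from different nucleotide sequences. Trbv13-3 belongs to the same family as Trbv13-1 and Trbv13-2. In the GRCm38.p6 RefSeq annotation it lies on chromosome 6 between the pseudogene Trbv12-3 and Trbv14.

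The sequences below are shown because the same 12-residue CDR3, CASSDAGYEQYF, was encoded by different nucleotides in different mice. The 87-nucleotide rearrangement that led in combination replicate 4 is given first, 5′ to 3′, with the CDR3 in capitals. The assay ends within the J gene, so the last codon of each CDR3 lies outside the read.
Leading rearrangement in combination replicate 4: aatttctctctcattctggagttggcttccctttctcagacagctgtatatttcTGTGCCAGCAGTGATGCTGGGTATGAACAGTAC

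The leading CDR3 nucleotide sequence of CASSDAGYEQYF then follows for the 14 samples that held it. Capitals mark the bases that the files assign to neither the V nor the J gene. All 8 forms shown share the V bases and the J bases, and they differ only in the final base of the alanine codon and the final base of the glycine codon.
Control replicates 2 and 4, ANT008 replicate 2 and combination replicate 4: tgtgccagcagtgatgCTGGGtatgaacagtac
Control replicate 3 and ANT008 replicates 1 and 3: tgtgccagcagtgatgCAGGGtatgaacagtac
Combination replicates 1 and 2: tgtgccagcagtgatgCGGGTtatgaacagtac
Combination replicate 3: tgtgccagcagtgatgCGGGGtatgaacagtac
ANT008 replicate 4: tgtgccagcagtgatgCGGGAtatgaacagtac
Anti-PD-1 replicate 1: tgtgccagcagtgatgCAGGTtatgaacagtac
Anti-PD-1 replicate 3: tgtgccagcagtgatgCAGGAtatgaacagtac
Control replicate 1: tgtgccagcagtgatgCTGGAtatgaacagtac

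The neighbouring sequence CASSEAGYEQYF, which reached the highest share of any TCRBV13-03 CDR3, and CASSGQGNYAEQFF, the most widespread CDR3 with the NYAEQFF ending and over 1% of templates in a sample, are shown in the same way.
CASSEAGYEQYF in combination replicate 3 and ANT008 replicate 3: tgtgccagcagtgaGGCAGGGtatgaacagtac
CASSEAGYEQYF in ANT008 replicate 1: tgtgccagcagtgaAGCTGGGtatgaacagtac
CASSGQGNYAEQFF in anti-PD-1 replicates 2 and 4: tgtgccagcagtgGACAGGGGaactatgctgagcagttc
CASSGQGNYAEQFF in anti-PD-1 replicate 3: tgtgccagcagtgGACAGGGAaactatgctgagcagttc
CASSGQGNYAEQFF in control replicates 1 and 4 and ANT008 replicate 1: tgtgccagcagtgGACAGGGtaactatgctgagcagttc
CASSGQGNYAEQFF in ANT008 replicate 4: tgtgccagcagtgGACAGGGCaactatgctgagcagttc

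TCRBV13-03 had the highest mean share of productive templates of any V gene, 9.31% ± 4.31 (SD, n = 16), ahead of TCRBV03-01 at 8.36% and TCRBV19-01 at 8.16%. By the number of unique productive rearrangements it held rank 7, with a mean of 5.66% ± 0.437. By unique out-of-frame rearrangements it held rank 13, with 4.40% ± 0.485. By templates it was the first V gene in 2 of 16 mice, combination replicates 3 and 4, with a median rank of 4.5 and a lowest rank of 9. The mean was 8.45% without combination replicate 3, and the median over all samples was 7.74%. The mean thus depended in part on combination replicate 3, and the rank on whether templates or different rearrangements were counted. The means of the other V genes without that mouse were not computed. In these bulk samples more cells of a clone and more templates per cell cannot be told apart.

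In the control mice, TCRBV13-03 made up 8.65%, 7.28%, 7.23% and 9.75% of productive templates in replicates 1 to 4. The ANT008 mice had 7.15%, 12.3%, 6.52% and 6.04%. The anti-PD-1 mice had 6.26%, 9.92%, 9.11% and 7.47%. The combination group spread most widely, with 5.44%, 8.01%, 22.3% and 15.6%. Its replicates 3 and 4 lay above all other samples, while replicate 1 was the lowest of the 16, so the combination values overlapped those of each other group. The Wilson 95% confidence interval of the highest value, 22.0% to 22.6%, covers counting error only and was far narrower than the distance between mice. With 1 library per mouse, differences between animals and between libraries cannot be told apart.

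The comparison with control asked whether either treatment or both changed the use of this V gene. Against control, the log2 fold change of TCRBV13-03 templates was −0.039 (SE 0.42) with ANT008, with an edgeR adjusted p of 0.965 over 26 V genes. With anti-PD-1 it was −0.0069 (SE 0.42), adjusted p 0.987 by the same edgeR fit. With the combination it was 0.64 (SE 0.42), adjusted p 0.375. The combined effect beyond the sum of the single treatments was 0.69 (SE 0.60), with an edgeR adjusted p of 0.663. None of these differences was called, and standard errors of this size leave room for changes of appreciable size in either direction. Over all V genes, 3.85% were called for ANT008, 0% for anti-PD-1 and 0% for the combination. At an unadjusted p under 0.05, 2, 4 and 4 V genes passed in the same order, and TCRBV13-03 was not among them. DESeq2 called 1, 0 and 1 V genes, and TCRBV13-03 was again not among them. Without combination replicate 3 the combination difference was 0.23.

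When each unique rearrangement was counted once, the groups were close. The control mice had 5.95%, 5.43%, 5.56% and 6.26%, and the ANT008 mice 6.56%, 5.16%, 5.61% and 5.16%. The anti-PD-1 mice had 5.83%, 5.15%, 5.85% and 5.30%, and the combination mice 5.44%, 5.42%, 6.35% and 5.53%. The combination difference from control on this count was −0.018 on the log2 scale, against 0.64 for templates.

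**Figure D1:**
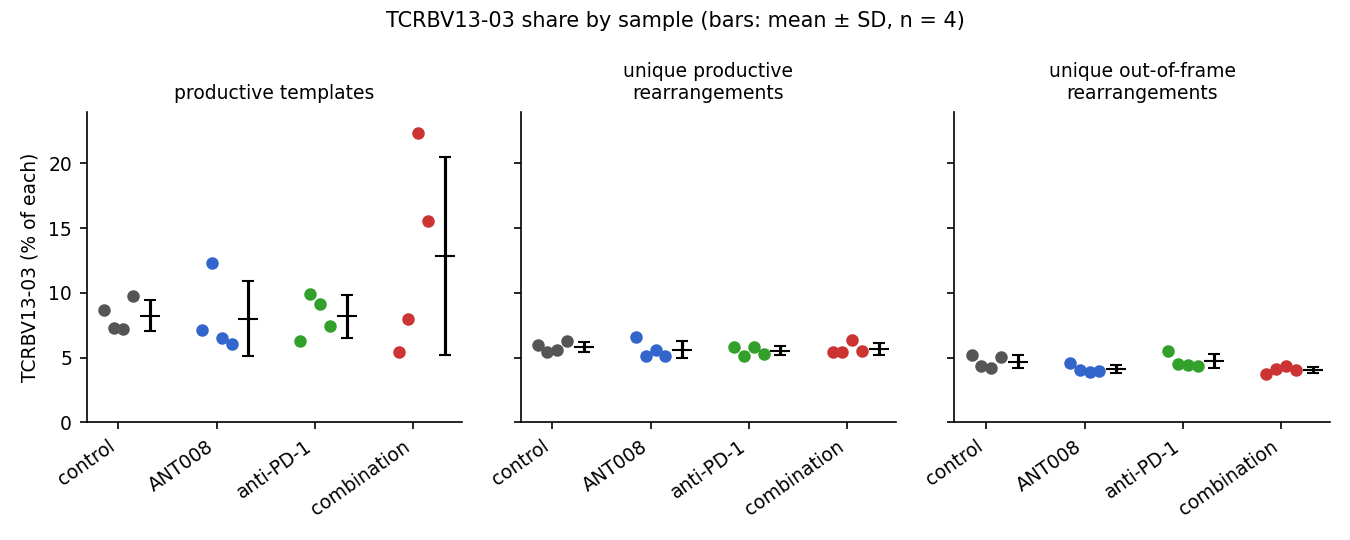
TCRBV13-03 as a percentage of productive templates (left), of unique productive rearrangements (middle) and of unique out-of-frame rearrangements (right), on 1 common axis. Each point is 1 mouse, in replicate order within its group, and the bars give mean ± SD over 4 mice. Combination replicates 3 and 4, at 22.3% and 15.6% of templates, fall among the other samples when rearrangements are counted once.

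The share of TCRBV13-03 templates taken by its most frequent CDR3 had its lowest value in anti-PD-1 replicate 4, 12.7%, and its highest in combination replicate 3, 81.1%, with a median of 34.3%. In the control mice it was 44.6%, 40.8%, 41.3% and 54.8%. In the combination mice it was 28.2%, 38.2%, 81.1% and 38.5%. With that CDR3 set aside, the rest of TCRBV13-03 amounted to 4.79%, 4.31%, 4.25% and 4.41% of productive templates in the control mice. The same remainder was 3.91%, 4.95%, 4.21% and 9.57% in the combination mice, 5.89%, 6.15%, 5.17% and 4.86% in the ANT008 mice, and 4.47%, 7.08%, 6.34% and 6.52% in the anti-PD-1 mice. Combination replicate 3, the highest sample by templates, lay below each control mouse on this measure, while combination replicate 4 was the highest of all samples on it. Replicate 4 of the combination held a further large clone, a CDR3 of 14 residues joined to TCRBJ02-01, at 3.65% of productive templates. No test was made on the remainder, since the CDR3s were removed for their size.

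The 2 other members of the gene family showed different levels and no called difference. TCRBV13-01 averaged 5.14% ± 2.19 of productive templates in control mice, 7.81% ± 5.89 in ANT008 mice, 5.34% ± 1.21 in anti-PD-1 mice and 9.74% ± 3.45 in combination mice (SD, n = 4). TCRBV13-02 averaged 8.99% ± 5.52, 5.79% ± 1.64, 4.98% ± 1.42 and 6.59% ± 1.03 in the same order. The largest difference from control in the pair was 0.92 (SE 0.47) on the log2 scale for TCRBV13-01 in the combination, with an edgeR adjusted p of 0.235. Across the 16 samples the V genes whose shares ranked most like that of TCRBV13-03 were TCRBV12-01 with a Spearman coefficient of 0.23, TCRBV15-01 with 0.22 and TCRBV27-01 with 0.15, and TCRBV27-01 averaged 0.00395% of templates. These coefficients are a description over 16 points that each share a fixed total, and each was low. By Pearson's coefficient TCRBV26-01 stood first with 0.66, where its Spearman coefficient was 0.10, and TCRBV15-01 followed with 0.43.

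Out-of-frame rearrangements gave the reference for the use of TCRBV13-03 before selection of the chain. Its share of unique rearrangements was higher among productive than among out-of-frame joins in 16 of 16 samples. The productive shares ran from 5.15% to 6.56% and the out-of-frame shares from 3.76% to 5.53%. The mean log2 ratio was 0.37 (SE 0.034, n = 16), with a permutation p of 3.05e-05, two-sided over all sign patterns, which is the smallest value those patterns can give. The ratio was lowest in anti-PD-1 replicate 1, at 0.075, and highest in combination replicate 3, at 0.55. Group means were 0.31 ± 0.084 in control mice, 0.44 ± 0.094 in ANT008 mice, 0.24 ± 0.14 in anti-PD-1 mice and 0.48 ± 0.074 in combination mice (SD, n = 4), and their differences were not tested. The same direction was seen in the rest of the family, where TCRBV13-01 took a mean of 6.23% of productive and 4.74% of out-of-frame unique rearrangements and TCRBV13-02 took 10.1% and 7.77%. TCRBV12-02, with 5.21% and 3.01%, had a wider gap than TCRBV13-03, so the excess was not particular to this gene. With CDR3s of 4 or more samples removed from the productive side, the mean ratio was 0.33, and with each distinct CDR3 nucleotide sequence counted once, a setting added after the data were seen, it was 0.31.

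Templates per rearrangement were also higher among productive joins. A productive TCRBV13-03 rearrangement held a mean of 7.32 ± 3.87 templates over the 16 samples, against 2.28 ± 0.686 for its out-of-frame rearrangements and 4.32 ± 1.63 for productive rearrangements of the other V genes. The value was above that of the other V genes in 15 samples beyond rounding, and both were 2.52 in combination replicate 1. Most of the rearrangements were nevertheless small, since 58.4% to 87.5% of them were single templates. A minority of rearrangements thus held most templates, and combination replicate 3 reached 16.7 templates per rearrangement.

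TCRBV13-03 joined every functional J gene, and TCRBJ02-07, the last J gene before the constant region of the second cluster, was the most frequent partner. It took 22.3% ± 3.97 of unique productive rearrangements (SD, n = 16), against 24.1% ± 3.91 of out-of-frame ones and 21.1% ± 0.897 for productive rearrangements of other V genes. TCRBJ02-01 followed with 15.5% ± 2.69, against 12.9% ± 2.14 out of frame and 12.9% ± 0.807 with other V genes. It was higher than out of frame in 12 of 16 samples and higher than with other V genes in 14. TCRBJ02-05 took 11.9% ± 1.77, TCRBJ02-04 8.68% ± 1.70 and TCRBJ02-03 7.95% ± 1.88. In the first cluster, TCRBJ01-01 took 7.74%, below the 8.81% of other V genes in 13 samples and above the 5.95% of out-of-frame joins in 13. TCRBJ01-04 took 6.38% ± 2.27. The remaining functional J genes, TCRBJ01-02, TCRBJ01-03, TCRBJ01-05, TCRBJ01-06 and TCRBJ02-02, each took between 2.71% and 5.07%. TCRBJ02-06 was found in 1 rearrangement and TCRBJ01-07 in 0. The orders of J genes in the productive and the out-of-frame sets were much alike, and no test was made on single J genes here.

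**Figure D2:**
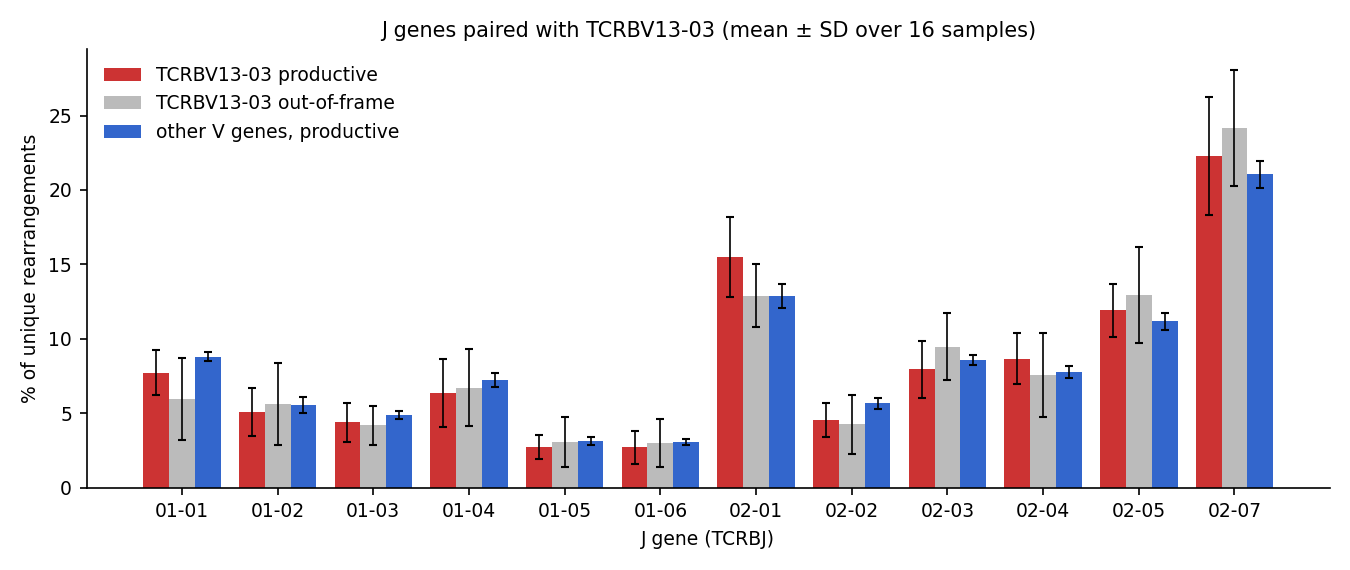
J genes joined to TCRBV13-03 as a percentage of unique rearrangements. Bars give the mean and error bars the SD over 16 samples for productive TCRBV13-03, out-of-frame TCRBV13-03 and productive rearrangements of other V genes. TCRBJ02-07 leads in all 3 sets at 21.1% to 24.1%, and TCRBJ02-01 reaches 15.5% with productive TCRBV13-03 against 12.9% in both references.

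By templates, the J gene that led in a sample often held a single large clone. TCRBJ02-07 joined to TCRBV13-03 held 0.427%, 1.51%, 0.771% and 7.47% of productive templates in the control mice. It held 1.62%, 3.22%, 2.66% and 2.29% in the ANT008 mice, and 2.56%, 0.620%, 2.53% and 1.91% in the anti-PD-1 mice. The combination mice had 3.17%, 1.64%, 19.3% and 8.20%. In combination replicate 3, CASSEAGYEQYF alone made up 18.1% of all productive templates. The high TCRBJ02-05 share in ANT008 replicate 2, 6.73%, held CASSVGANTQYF at 6.17%. The high TCRBJ01-04 share in control replicate 1, 4.01%, held a single CDR3 of 15 residues at 3.86%. The TCRBJ02-01 share was highest in anti-PD-1 replicate 2, at 5.92%, and second in combination replicate 4, at 4.20%.

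Between groups, 12 TCRBV13-03 pairs were tested among 290 V-J pairs, and edgeR called 0 in each comparison at an adjusted p under 0.05. The share called over all pairs was also 0% for ANT008, 0% for anti-PD-1 and 0% for the combination. At an unadjusted p under 0.05, 2, 3 and 5 of the 12 pairs passed in that order. Of these, 0, 2 and 2 were higher than control and 2, 1 and 3 lower. Over all 290 pairs 40, 50 and 40 passed, or 13.8%, 17.2% and 13.8%. The median log2 fold change of the 12 pairs was −0.021, 0.056 and 0.53, beside 0.33, 0.30 and 0.43 over all pairs.

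TCRBJ01-03 was the pair nearest to a call. It held 0.0385%, 0.0898%, 0.105% and 0.0349% of productive templates in the control mice and 0.135%, 0.188%, 0.336% and 0.824% in the combination mice. The log2 difference was 2.46 (SE 0.69), with an edgeR adjusted p of 0.163. The pair was picked for its low p, and 13.8% of all 290 pairs passed an unadjusted p under 0.05 in this comparison. How many other pairs separated these 2 groups as fully was not counted. In combination replicate 4, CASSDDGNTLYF made up 0.688% of the 0.824%. This CDR3 was named after its value was seen.

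TCRBJ01-02 lay lower than control in each treated group by the fitted value, −1.67 for ANT008, −1.98 for anti-PD-1 and −2.21 for the combination on the log2 scale. Control held 1.08%, 0.531%, 0.110% and 0.0778%, and the combination 0.0898%, 0.102%, 0.111% and 0.0829%, so the groups overlapped and control replicates 1 and 2 stood apart. All 3 comparisons use the same control mice. The edgeR adjusted p was 0.281, 0.240 and 0.215. DESeq2 called TCRBJ01-02 with anti-PD-1 and 4 pairs with the combination, TCRBJ01-02, TCRBJ01-04 and TCRBJ02-05 lower and TCRBJ01-03 higher, against 2.07% and 5.52% of all pairs.

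The in-frame TCRBV13-03 rearrangements gave 5955 different CDR3 amino acid sequences. Of these, 5579 were found in 1 sample, 271 in 2, 55 in 3 and 25 in 4. A further 10 were found in 5 samples, 6 in 6, 6 in 7, 1 in 8, 1 in 11 and 1 in 14. The 376 CDR3s in 2 or more samples were 6.31% of the total, and the 50 in 4 or more were 0.840%. Among all other V genes together the latter share was 0.842%, so TCRBV13-03 was close to the whole, and it held rank 6 of 20 V genes with at least 1000 CDR3s. The other V genes in that set ran from 0% for TCRBV24-01 to 1.41% for TCRBV03-01.

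The 50 CDR3s found in 4 or more samples were described by their sequence. Of the 50, 26 began with CASSD, 6 with CASSE and 6 with CASSG, and 12 held a pair of glycines. The V gene encodes CASSD when its end is kept or loses 1 base, and an inserted base can also complete the last codon. The V end was untrimmed in 21.7% of the nucleotide sequences of the 50 CDR3s. TCRBJ02-07 was used by 13, TCRBJ02-05 by 10, TCRBJ02-01 by 10, TCRBJ02-04 by 5 and TCRBJ01-04 by 4. There were 16 that occurred in all 4 groups and 0 in 1 group alone, a count that the minimum of 4 samples largely sets. The sequences of the 50 held a mean of 1.44 inserted nucleotides and 12.98 residues, against 1.98 and 13.2 for CDR3s in 2 or 3 samples and 3.66 and 13.9 for CDR3s in 1 sample. No inserted nucleotide at all was found in 28.6%, 21.4% and 6.30% of the CDR3 nucleotide sequences in the same order. The CASSD start was found in 51.4%, 47.0% and 33.4%. For comparison, recurrent CDR3s of other V genes held a mean of 2.00 inserted nucleotides, those in 1 sample 3.92, and out-of-frame TCRBV13-03 joins 3.93. These are descriptions of the selected set.

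**Figure D3:**
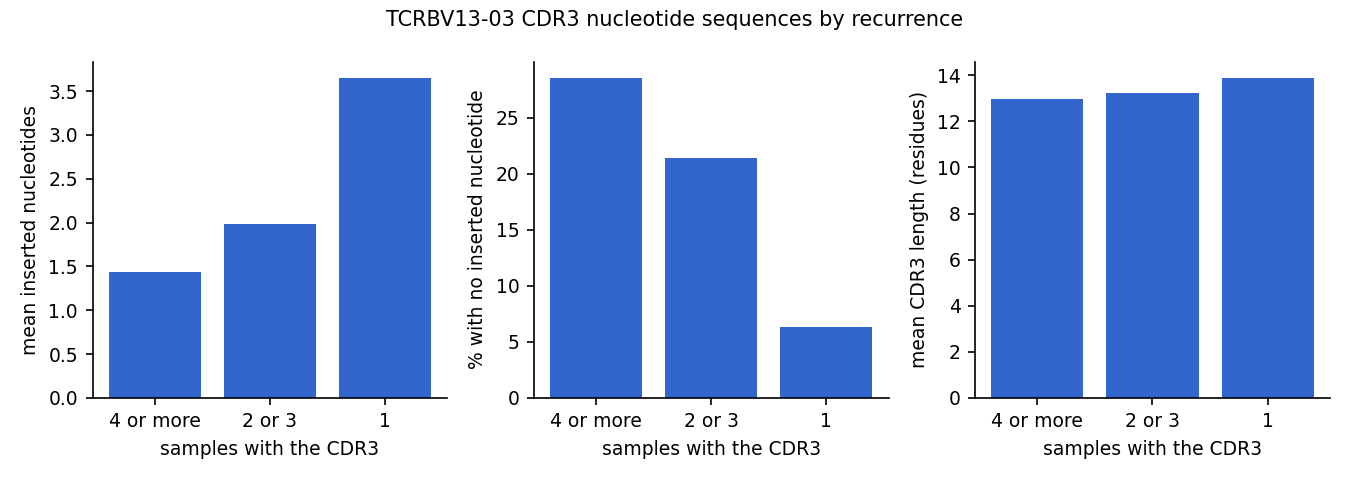
TCRBV13-03 CDR3 nucleotide sequences by the number of samples in which their CDR3 was found (4 or more, 2 or 3, and 1). The bars give the mean number of inserted nucleotides, the percentage with no inserted nucleotide and the mean CDR3 length in residues. Insertions were 1.44, 1.98 and 3.66, while the length differed by about 1 residue.

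Most recurrent CDR3s were rare. The highest share in any sample was under 0.1% of productive templates for 36 of the 50 and at least 1% for 5. Between 9 and 24 of the 50 were found in a sample, with the fewest in anti-PD-1 replicate 4, which had the lowest depth, and the most in combination replicate 3, which had the second highest. Together the 50 took between 2.60% of TCRBV13-03 templates in combination replicate 3 and 67.6% in control replicate 4.

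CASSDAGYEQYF was the most widespread, found in 14 of 16 samples with 7440 templates. It made up 0.135%, 1.16%, 0.00787% and 5.34% of productive templates in the control mice. The ANT008 mice had 0.0132%, 2.31%, 0.875% and 1.18%, and the combination mice 1.53%, 1.08%, 0.354% and 6.00%. In the anti-PD-1 mice it was 1.79% in replicate 1 and 0.123% in replicate 3. Replicates 2 and 4 of that group held 0 templates, which allows a share of up to 0.00949% and 0.0418%. Every control, ANT008 and combination mouse held the CDR3, at levels that differed by more than 100 times among the control mice alone. In control replicate 3 and ANT008 replicate 1 this rested on 3 templates each. The share that 0 templates allowed in anti-PD-1 replicate 4 lay above both of these shares. The share allowed in anti-PD-1 replicate 2 lay above that of control replicate 3. Wilson 95% confidence intervals ran from 5.11% to 5.57% in control replicate 4 and from 5.76% to 6.25% in combination replicate 4. Against control the edgeR log2 difference was −0.60 (SE 2.91) for ANT008, −1.80 (SE 2.99) for anti-PD-1 and 0.43 (SE 2.90) for the combination, with adjusted p of 0.983, 0.874 and 0.998. Errors of this size mean that even a large change in this CDR3 could not have been told from the spread between mice.

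The next CDR3s by number of samples were far less abundant. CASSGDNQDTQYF was found in 11 samples with 64 templates and reached 0.144% in ANT008 replicate 4. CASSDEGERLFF was found in 8 samples with 54 templates and reached 0.111% in the same mouse. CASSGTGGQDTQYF, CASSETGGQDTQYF, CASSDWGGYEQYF, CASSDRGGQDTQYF and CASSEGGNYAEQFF were each found in 7 samples. The first of these reached 0.515% in anti-PD-1 replicate 4, on 37 templates, and the last was a single template in each of its 7 samples. Broad occurrence and high abundance therefore coincided in few CDR3s.

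The CDR3s with the highest share in 1 sample were mostly found in few mice. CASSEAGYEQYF held 18.1% of productive templates in combination replicate 3, 0.569% in ANT008 replicate 1 and 0.243% in ANT008 replicate 3, with 0 templates elsewhere. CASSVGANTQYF held 6.17% in ANT008 replicate 2 and 1 template in ANT008 replicate 3. A CDR3 of 15 residues in control replicate 1, at 3.86%, and the one of 14 residues in combination replicate 4, at 3.65%, were each found in 1 sample. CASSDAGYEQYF was the exception, the most widespread CDR3 and also 1 of the 5 most abundant.

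**Figure D4:**
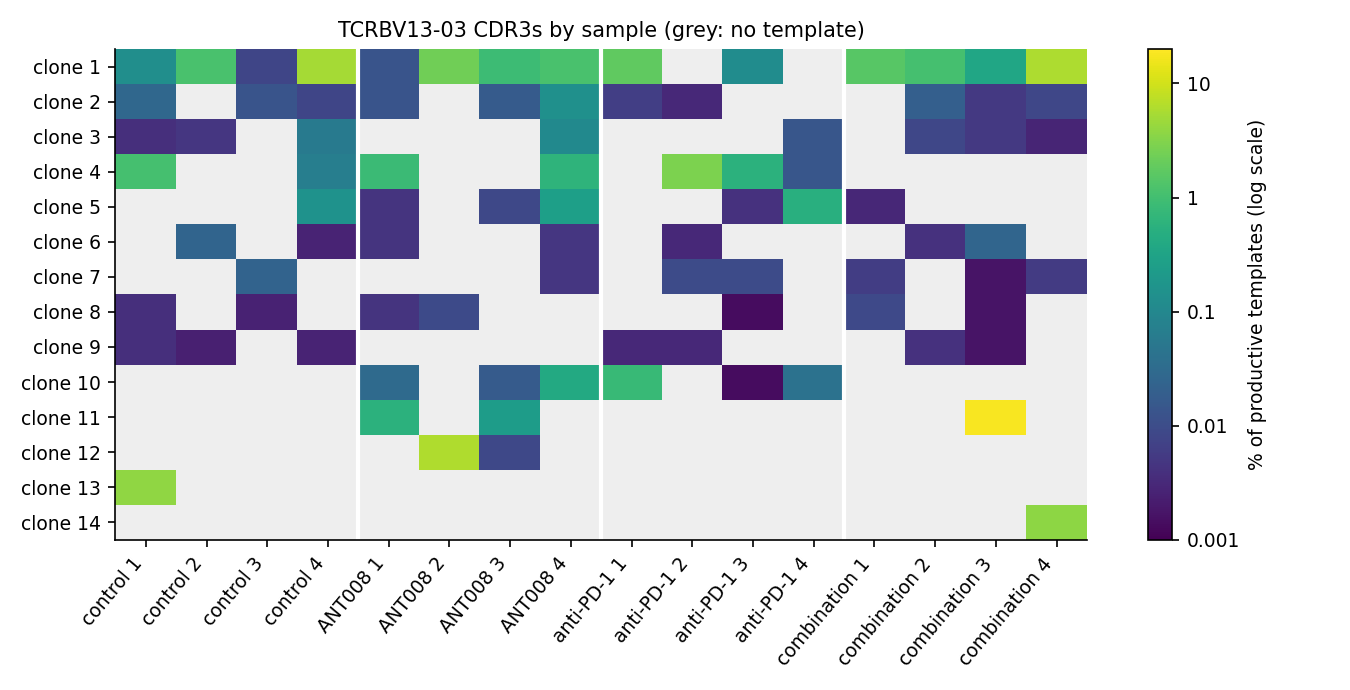
Share of productive templates (log color scale) of 14 TCRBV13-03 CDR3s, here called clones, in each of 16 mice, with grey for no template. Clones 1 to 10 are the CDR3s found in most samples, from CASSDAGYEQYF (1), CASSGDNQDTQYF (2), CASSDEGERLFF (3) and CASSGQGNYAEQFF (4) to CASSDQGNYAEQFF (10), and clones 11 to 14 are the further ones with the highest share in a sample, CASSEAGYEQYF (11), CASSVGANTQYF (12), one of 15 residues (13) and one of 14 residues (14). Clone 1 is present in 14 samples, whereas clone 11 reaches 18.1% in combination replicate 3 and is present in 3.

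In the group tests over 909 clonotypes found in at least 4 samples, defined by V gene and CDR3, edgeR called 0 of the 50 TCRBV13-03 members in each comparison. Over all clonotypes the share called was likewise 0% for ANT008, 0% for anti-PD-1 and 0% for the combination. At an unadjusted p under 0.05, 7, 10 and 8 of the 50 members passed in that order. Of these, 6, 7 and 3 were higher than control and 1, 3 and 5 lower. Over all 909 clonotypes 99, 114 and 132 passed, or 10.9%, 12.5% and 14.5%. The median log2 fold change of the members was 0.42, 0.24 and 0.12, beside 0.33, 0.21 and 0.59 over all clonotypes. DESeq2 called 1 member lower with anti-PD-1, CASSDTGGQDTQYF, and 1 lower with the combination, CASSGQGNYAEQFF. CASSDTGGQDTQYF was named after its values were seen. Both had 0 templates in the treated group, and DESeq2 called 2 of 909 clonotypes in each of these comparisons.

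The ending AGYEQYF joins 2 residues encoded around the D gene to the YEQYF of TCRBJ02-07. It was found in 5 TCRBV13-03 CDR3s, of which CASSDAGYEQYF and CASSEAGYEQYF were found in more than 1 sample and the other 3 were single templates in combination replicate 3 or 4. The ending took 18215 templates with TCRBV13-03, out of 18460 with any V gene, or 98.7%. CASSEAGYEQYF held 10772 of these templates and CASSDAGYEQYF 7440. By rearrangements, 126 of the 282 with this ending used TCRBV13-03, so most used other V genes. Of the productive TCRBV13-03 templates, 33.7% carried it, as did 1.76% of its unique rearrangements. TCRBV13-03 held rank 1 of 20 V genes on both counts, which are not independent. Sequences that differ only upstream of the CDR3 each count as a rearrangement. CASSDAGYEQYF had 56 different rearrangements but 10 CDR3 nucleotide sequences, and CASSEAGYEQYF 23 and 2. The ending was also chosen with earlier results known, so the rank describes a selected set. Combination replicate 3 alone gave most templates with the ending. Without that mouse the ending was carried by 18.0% of TCRBV13-03 templates, still rank 1. By mouse it made up 0.135%, 1.16%, 0.00787% and 5.34% of productive templates in control, and 0.582%, 2.31%, 1.12% and 1.18% with ANT008. It made up 1.79%, 0%, 0.123% and 0% with anti-PD-1, and 1.53%, 1.08%, 18.4% and 6.01% with the combination. The mean was 1.66% ± 2.50 in control, 1.298% ± 0.728 in the ANT008 mice, 0.478% ± 0.876 in the anti-PD-1 mice and 6.77% ± 8.10 in the combination mice (SD, n = 4). The groups overlapped, and single mice set 3 of the means, which were 2.87% without combination replicate 3, 0.436% without control replicate 4 and 0.0409% without anti-PD-1 replicate 1.

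The ending NYAEQFF, most of which is encoded by TCRBJ02-01, was shared much more broadly. It was found in 287 TCRBV13-03 CDR3s of 11 to 18 residues, 269 of them in 1 sample and 5 in 4 or more. With TCRBV13-03 it had 4494 of the 21362 templates with any V gene, or 21.04%. It made up 5.22% of the unique rearrangements of TCRBV13-03, rank 2 of 20 behind TCRBV17-01 at 5.63%. That count also includes sequences that differ only upstream, as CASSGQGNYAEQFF had 20 rearrangements but 4 CDR3 nucleotide sequences. By mouse the ending held 1.11%, 0.439%, 0.110% and 0.123% of productive templates in control, and 0.966%, 0.106%, 0.113% and 1.11% with ANT008. It held 0.904%, 5.52%, 1.26% and 1.11% with anti-PD-1, and 0.141%, 0.856%, 0.112% and 0.235% with the combination. The group means were 0.446% ± 0.469, 0.573% ± 0.538, 2.20% ± 2.22 and 0.336% ± 0.351 (SD, n = 4). The mean was 1.09% without anti-PD-1 replicate 2, 0.224% without control replicate 1 and 0.163% without combination replicate 2. Each anti-PD-1 mouse lay above each combination mouse, a comparison noticed in the data and not tested.

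Within this ending, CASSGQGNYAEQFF was found in 7 samples and in 0 of 4 combination mice. There, 0 templates allow a share of up to 0.00511% to 0.0122%, depending on the mouse. Absence from a group was common, since only 16 of the 50 recurrent CDR3s occurred in all 4 groups. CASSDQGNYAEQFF, with the same ending, was likewise found in 0 combination mice and in 0 control mice. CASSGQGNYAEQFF held 1.06% and 0.0697% in control replicates 1 and 4, 0.851% and 0.631% in ANT008 replicates 1 and 4, and 2.84%, 0.577% and 0.0139% in anti-PD-1 replicates 2, 3 and 4. Its edgeR adjusted p for the combination against control was 0.294. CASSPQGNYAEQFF, named after its values were seen, was found in all 4 anti-PD-1 mice and in 1 other, combination replicate 3. It held 832 templates in anti-PD-1 replicate 2 and 392 in replicate 3, beside 897 and 419 templates of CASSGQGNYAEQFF in the same mice. In the other 3 samples it had between 1 and 25 templates. It entered the clonotype table through the anti-PD-1 mice, so no test of that group is given for it.

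The number of nucleotide sequences behind a CDR3 depended on which stretch was compared. Over 87 nucleotides, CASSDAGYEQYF was carried by 56 different rearrangements, the most of any of the CDR3s in the plot of nucleotide sequences by clone. Over the CDR3 alone there were 10 different sequences. The other differences lay upstream, in the V gene bases before the CDR3, where 15 sequences were found and 1 of them held 98.6% of the templates. Whether the rare upstream sequences arose in the T cells or in the assay was not tested. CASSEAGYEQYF had 23 rearrangements but 2 CDR3 sequences, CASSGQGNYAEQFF 20 and 4, and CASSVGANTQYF 9 and 1. Less abundant recurrent CDR3s had smaller gaps or none, with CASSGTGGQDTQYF at 8 and 5, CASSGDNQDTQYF at 8 and 6, and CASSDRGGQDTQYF at 7 and 7.

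**Figure D5:**
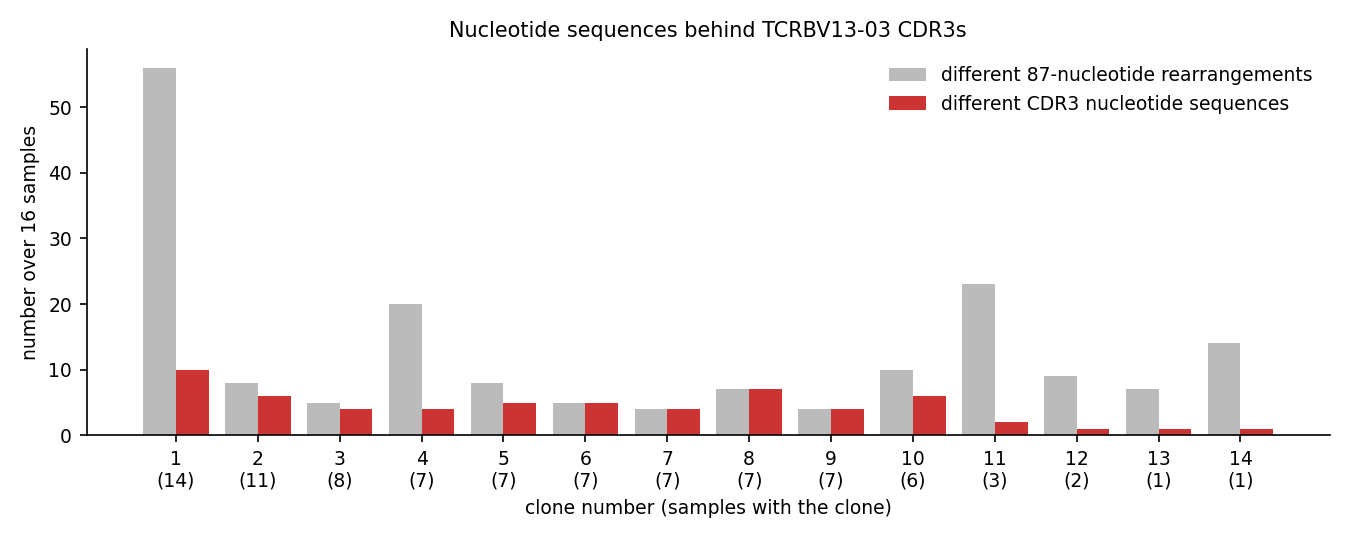
Number of different 87-nucleotide rearrangements (grey) and of different CDR3 nucleotide sequences (red) over 16 samples for each of the 14 CDR3s, numbered as in the plot of shares by sample, with the number of samples in brackets. Clone 1 (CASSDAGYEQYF) has 56 against 10 and clone 11 (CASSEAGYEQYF) 23 against 2, while clones 6 to 9 have equal bars.

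Of the 10 CDR3 sequences of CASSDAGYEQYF, 8 led in at least 1 sample and 8 were found in 2 or more samples. The form that led in combination replicate 4 was found in 6 samples with 4241 templates, 57.0% of all templates of this CDR3, and the files assign no inserted base to it. A single form made up all of the CDR3 in control replicates 2 and 3, ANT008 replicate 1, anti-PD-1 replicate 3 and combination replicates 3 and 4. In control replicate 4 and ANT008 replicate 2 the leading form made up 53.9% and 50.3%, with a second form beside it. Control replicate 1 and combination replicate 2 held 4 forms each. In 10 of the 14 mice, then, the leading form differed from that of combination replicate 4, and a mouse could hold more than 1 form.

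Identical sequences also occurred across mice. Of 6877 different productive rearrangements over 87 nucleotides, 6678 were found in 1 sample and 199 in 2 or more. Pairs of samples shared between 0 and 12, with a median of 3 over 120 pairs, and the most were shared by control replicate 2 and combination replicate 4. The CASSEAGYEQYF sequence that held 10570 templates in combination replicate 3 was identical to the one with 28 templates in ANT008 replicate 3, while ANT008 replicate 1 had another. A sequence carried over between libraries would also be counted as found in both, and whether this occurred was not tested. Defining recurrence by the identical CDR3 nucleotide sequence left 14 in 4 or more samples, in place of 50 by amino acids.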

How the data were processed

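TCRB rearrangements from 16 mice were analyzed, 1 file per mouse. Per the file headers, the deposited values are counts of template molecules for each 87-nucleotide rearrangement, estimated by the immunoSEQ service and not normalized. The labels name total RNA and an RNA kit. The paper describes extracted tumor DNA in its results and an RNA kit in its sequencing methods. Whether a template stands for a gene copy or a transcript was therefore not settled. Genome build and aligner are not given in the sources used here. Sample names inside most files carry other numbers than the titles, and the titles were used. The labels give each sample as its own mouse.

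Template counts were summed per V gene, V-J pair and clonotype (V gene and CDR3) with Python 3.11.15, pandas 2.3.3, numpy 2.4.6 and scipy 1.17.1. V genes and V-J pairs under 10 templates over all samples were dropped. Clonotypes had to be in at least 4 samples, with no further minimum of templates, so some tested members held only 4 templates in all. The edgeR 4.0.16 quasi-likelihood test (R 4.3.3) fitted 4 group means with productive templates as library size, and p-values were adjusted by Benjamini-Hochberg over each whole table at a threshold of 0.05. The SE of an edgeR difference is the absolute log2 fold change divided by the square root of the F statistic. It is approximate and can be too small where the fold change is very small. DESeq2 1.42.0, TMM scaling and the settings in the closing section were alternatives, and scripts were tested on simulated data. The 104 rearrangements tied between TCRBV13-02 and TCRBV13-03 were not counted. No germline or protein sequence was used here. Members, endings and tests were chosen with earlier results of these data known. Named were the Trbv13 family, the 3 V genes ranked most like TCRBV13-03, every J gene, the 10 CDR3s in most samples, the 5 with the highest share in 1 sample, and those with either ending in at least 8 samples. CDR3s of 15 or more residues are not spelled out, nor is 1 of 14 residues whose letters read as base codes. Intervals are Wilson 95%, floors are 3 templates, and both cover counting error only. Figures were drawn with matplotlib 3.10.9.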

Additional observations from a re-analysis of the deposited data

Results flagged for a closer look

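In each group of 4 mice, the distance of the highest or lowest sample to its nearest neighbour, divided by the whole range of the group, was compared with Dixon's 95% critical value. Over 13 measures and 4 groups, 8 of 52 groups passed. The nominal chance rate of about 1 in 20 holds for normally distributed values. Several of these measures overlap, so no excess over chance can be read from the count. Combination replicate 3 had 6.35% of unique productive rearrangements with TCRBV13-03, against 5.42% to 5.53% in the other 3 mice. Anti-PD-1 replicate 1 had 5.53% of unique out-of-frame rearrangements, against 4.34% to 4.54%. The AGYEQYF ending made up 1.79% of productive templates in anti-PD-1 replicate 1, against 0% to 0.123%.

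The NYAEQFF ending made up 5.52% in anti-PD-1 replicate 2, against 0.904% to 1.26%, and 0.856% in combination replicate 2, against 0.112% to 0.235%. The most frequent CDR3 took 50.1% of TCRBV13-03 templates in ANT008 replicate 2, against 17.6% to 20.7%, and 12.7% in anti-PD-1 replicate 4, against 28.6% to 30.4%. The mean number of inserted nucleotides was 2.81 in ANT008 replicate 3, against 3.19 to 3.21. No cause was tested.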

How the results depend on the processing

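No usage difference was called, and several changed sign. For ANT008 against control, leaving out each sample in turn gave −0.32 to 0.075, with values above 0 without control replicate 4 (0.053) or ANT008 replicate 1 (0.012), 3 (0.048) or 4 (0.075). For anti-PD-1 the same range was −0.11 to 0.10, above 0 without control replicate 1 (0.018) or 4 (0.085) or anti-PD-1 replicate 1 (0.10) or 4 (0.035). For the combination it was 0.23 to 0.89, lowest without combination replicate 3. Without the most frequent rearrangement of each V gene the value was 0.042 for anti-PD-1 and −0.13 for the combination. With out-of-frame templates it was 0.20 and −0.56, and with unique rearrangements −0.018 for the combination. TMM scaling gave −0.34, −0.30 and 0.49 in the 3 comparisons in the same order. None of these passed its threshold. An exact permutation test on 4 against 4 mice, which can reach 0.0286, gave p of 0.743, 0.943 and 0.371. DESeq2 called 1 and 4 V-J pairs and 1 and 1 clonotypes with TCRBV13-03 for anti-PD-1 and the combination, where edgeR called 0. Other alternatives for pairs and clonotypes, leaving out samples included, gave 0.

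Samples with the same replicate number did not deviate together, with a median correlation of 0.013 over 24 pairs against 0.0076 over 72 pairs of different numbers. With the replicate block, usage differed from control by −0.062, −0.051 and 0.54, the last with an edgeR adjusted p of 0.678. The excess of productive over out-of-frame shares kept a positive mean in each alternative, at 0.35 to 0.39 leaving out samples, 1.39 for templates (15 of 16 samples, with −0.18 in anti-PD-1 replicate 1) and 0.39 with stop codons added to the reference. Of recurrent CDR3s, 20 were left with at least 2 templates required per sample, 373 with any V gene and 19 for identical 87-nucleotide sequences. Approximate clonotype standard errors, with a median of 1.73 and a maximum of 3.91 on the log2 scale over the 145 above 0, limit what those tests can show.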
